A study of Mus musculus with 4 samples.

Results

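The retinal pigment epithelium genes described here were Tyr, Tyrp1, Dct, Pmel, Mlana, Mitf, Rpe65, Rgr, Ttr and Best1, which are 10 of the 21828 genes in the deposited tables. They were taken by name, as melanin and visual cycle genes of the pigment epithelium. They were selected on their FPKM in EGFP-positive cells sorted at postnatal day 4 (P4), where they were higher. The values of that library are therefore a description of the choice and carry no test. Each of the 10 genes had 1 line in each table, and all were present in all 4 tables.

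The libraries came from retinas of pHes1-EGFP transgenic mice, in which a promoter fragment of Hes1 drives a destabilized EGFP, so that the EGFP marks cells with an active fragment and not a lineage. At postnatal days 1 and 4 (P1 and P4) the retinas were dissociated with trypsin and sorted into EGFP-positive cells (pHes1_EPC) and EGFP-negative cells (pHes1_ENC), with propidium iodide to leave out dead cells. RNA of each fraction at each age was sequenced as 1 library, giving 4 libraries, all from animals that carried the transgene and received no treatment, and the sources used here do not state whether animals were pooled. The labels give the strain as FVB/N, which is albino, and the tissue as retina, the neural layer that lies against the pigment epithelium in the eye.

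The pigment epithelium is a single layer of cells behind the photoreceptors. It makes melanin in melanosomes, regenerates 11-cis-retinal for the visual pigments in the visual cycle, takes up shed outer segments, and carries ions and nutrients between the choroid and the retina. It arises from the same optic vesicle as the neural retina, and the factor MITF, which binds E-box sequences in the promoters of melanin genes, drives its pigment program. Müller glia, the radial glia of the retina in which Hes1 is active, share several retinoid-handling genes with it.

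The tables give FPKM, the fragments of a transcript scaled to its length in kilobases and to the mapped fragments of its library, with a 95% interval for each gene and library. An FPKM is already divided by transcript length, so levels of different genes can be set side by side. The interval covers the counting error of 1 library and no variation between animals or sorts, and with 1 library per group no difference below has a replicate check. The targeted promoter can be checked through Hes1 itself, whose FPKM was 16.6 in EGFP-negative and 105 in EGFP-positive cells at P1, and 3.59 and 93.5 at P4. Between 11458 and 12108 genes reached an FPKM of 1 in a library, and the worth of 1 read, inferred from the widths of the intervals, differed between libraries by at most 1.08 times.

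The promoters of the members were searched for short motifs, and their sequences were not compared with each other. The stretch from 250 bases before to 49 bases after the first base of the gene, counted as position 0, were read from NCBI37/mm9 with the gene start of the deposited tables, and are given for the 3 melanin enzymes and for Pmel, the member with the highest level. The windows are chr7:94641872-94642171 on the minus strand for Tyr, chr4:80479884-80480183 on the plus strand for Tyrp1, chr14:118451419-118451718 on the minus strand for Dct and chr10:128143064-128143363 on the plus strand for Pmel. Capitals mark the E-box letters CATGTG, the form that MITF can bind, or their reverse complement CACATG, together with the T that precedes CATGTG in the M-box core, TCATGTG.
Tyr: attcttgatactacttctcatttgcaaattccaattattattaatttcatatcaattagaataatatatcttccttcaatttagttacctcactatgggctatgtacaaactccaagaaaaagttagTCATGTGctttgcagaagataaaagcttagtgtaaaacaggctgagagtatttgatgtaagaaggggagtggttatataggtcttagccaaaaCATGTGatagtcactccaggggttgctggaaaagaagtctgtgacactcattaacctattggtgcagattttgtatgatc
Tyrp1: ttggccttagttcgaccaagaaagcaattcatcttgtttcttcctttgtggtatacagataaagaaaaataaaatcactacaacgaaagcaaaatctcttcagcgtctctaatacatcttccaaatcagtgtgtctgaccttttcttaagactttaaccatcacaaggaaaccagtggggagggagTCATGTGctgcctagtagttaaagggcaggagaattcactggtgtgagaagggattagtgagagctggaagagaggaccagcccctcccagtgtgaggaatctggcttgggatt
Dct: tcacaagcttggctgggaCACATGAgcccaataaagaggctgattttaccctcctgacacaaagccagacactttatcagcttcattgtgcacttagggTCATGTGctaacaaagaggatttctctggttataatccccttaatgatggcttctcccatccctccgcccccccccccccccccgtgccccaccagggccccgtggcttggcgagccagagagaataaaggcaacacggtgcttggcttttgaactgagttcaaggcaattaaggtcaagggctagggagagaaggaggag
Pmel: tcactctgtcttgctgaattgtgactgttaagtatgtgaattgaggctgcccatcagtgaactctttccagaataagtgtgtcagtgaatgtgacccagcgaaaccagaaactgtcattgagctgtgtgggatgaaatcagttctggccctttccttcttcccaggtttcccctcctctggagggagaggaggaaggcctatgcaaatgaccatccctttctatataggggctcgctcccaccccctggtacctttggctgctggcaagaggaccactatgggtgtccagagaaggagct

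The M-box core TCATGTG, searched on both strands, was found in 3 of the 10 members' windows, those of Tyr, Tyrp1 and Dct, and in 2.81% of the 20859 windows of the same length over all genes. It lay at -123 to -117 in Tyr and at -64 to -58 in Tyrp1. Dct held 2 matches, at -151 to -145 on the strand of the gene and at -232 to -226 on the other strand. The shorter CATGTG, which each M-box core contains, was found in 5 members, adding Rpe65 and Rgr, against 10.8% of all windows, and the palindrome CACGTG in 0 members, against 8.1%. The letters TAATCC, the core of the site of the Otx homeodomain factors, were found on either strand in 5 members, Tyrp1, Dct, Rpe65, Rgr and Best1, against 6.72% of all windows. Pmel, Mlana, Mitf and Ttr held none of these letters in this window. MITF is known to bind E-box sequences in promoters of melanin genes. Matches of the M-box core and of CATGTG in such genes therefore describe the choice of motif, and the shares beside them carry no test. These are matches of letters only, and their use in these cells was not tested.

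**Figure D1:**
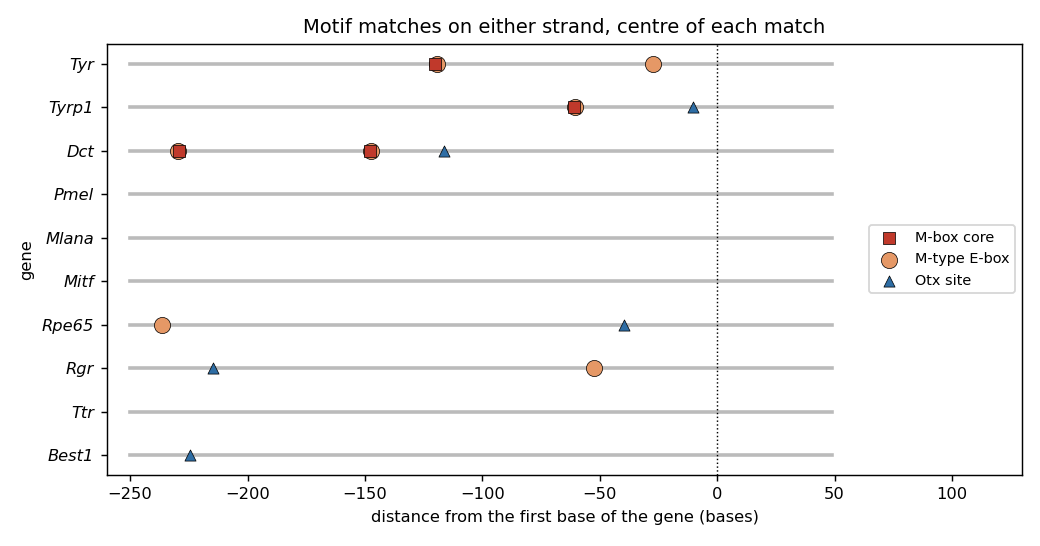
Positions of motif letters around the first base of each of the 10 pigment epithelium genes, in bases, with negative values upstream. Squares are M-box cores, circles the shorter E-box that each of them contains, and triangles Otx sites, on either strand. Tyr, Tyrp1 and Dct hold M-box cores, whereas Pmel, Mlana, Mitf and Ttr hold none of the 3.

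Across the 4 libraries, 9 of the 10 genes had their highest FPKM in P4 pHes1_EPC, the library that selected them, against 26.3% of all genes, and the exception was Mitf. In that library 7 members reached an FPKM of 1, and 3 of them, Pmel, Ttr and Dct, reached 10. The summed FPKM of the 10 genes was 7.36 in EGFP-negative and 4.67 in EGFP-positive cells at P1, and 13.2 and 92.0 at P4. Differences are given as log2(FPKM + 1) of the first library minus the second, a scale that understates the change of genes with low FPKM, and a gene is counted as higher or lower when the difference exceeds 1, which is 2-fold.

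**Figure D2:**
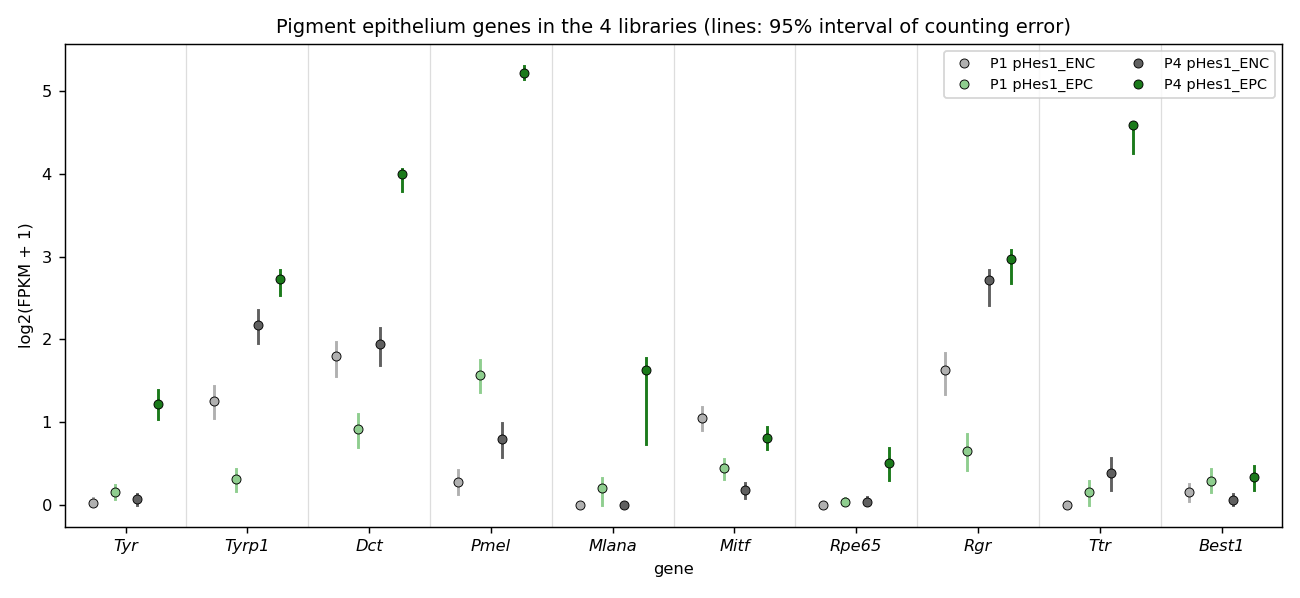
log2(FPKM + 1) of the 10 pigment epithelium genes in the 4 libraries, with 1 library per group. Points are the deposited values and vertical lines their 95% intervals of counting error. Pmel, Ttr and Dct stand highest in P4 pHes1_EPC, while Tyrp1, Dct, Mitf and Rgr were lower in pHes1_EPC than in pHes1_ENC at P1.

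Tyr, Tyrp1 and Dct encode the enzymes of melanin synthesis, of which tyrosinase catalyses the rate-limiting first steps. Tyr (chromosome 7, 94575915 to 94641921) had an FPKM of 0.0123 in EGFP-negative and 0.116 in EGFP-positive cells at P1, and 0.0491 and 1.34 at P4. Only P4 pHes1_EPC stood apart, with about 88 reads as inferred from the interval, against 1 to 8 reads in the other libraries. The P4 ratio of pHes1_EPC to pHes1_ENC was 27.2, with a lower bound of 11.0 and no upper bound, because the interval of P4 pHes1_ENC reaches 0. Its P1 intervals overlapped, and the P1 difference was 0.14 on the log2(FPKM + 1) scale.

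Tyrp1 (chromosome 4, 80480134 to 80497622), which stabilizes tyrosinase and acts late in eumelanin synthesis, had an FPKM of 1.39 in EGFP-negative and 0.242 in EGFP-positive cells at P1, and 3.51 and 5.64 at P4. Unlike Tyr, it was measured at an FPKM above 1 in EGFP-negative cells at both ages. At P1 it was 5.73 times lower in pHes1_EPC than in pHes1_ENC, and at P4 it was 1.61 times higher, with bounds of 1.16 and 2.13.

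Dct (chromosome 14, 118412012 to 118451468), the dopachrome tautomerase, had an FPKM of 2.47 in EGFP-negative and 0.888 in EGFP-positive cells at P1, and 2.84 and 15.0 at P4. In EGFP-negative cells its levels at the 2 ages had overlapping intervals. In EGFP-positive cells the P4 level was 16.9 times that of P1, with bounds of 11.3 and 25.2. The order of the fractions differed between the ages, with a P1 difference of -0.88 and a P4 difference of 2.06.

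Pmel and Mlana encode proteins of the melanosome, PMEL forming the amyloid fibrils on which melanin is laid down and MLANA assisting its maturation. Pmel (chromosome 10, 128143314 to 128157294) had an FPKM of 0.209 in EGFP-negative and 1.98 in EGFP-positive cells at P1, and 0.737 and 36.5 at P4. It was the highest member in both pHes1_EPC libraries, and its intervals were apart between fractions at both ages. The ratio of pHes1_EPC to pHes1_ENC was 9.46 at P1, with bounds of 4.66 and 25.1, and 49.5 at P4, with bounds of 35.1 and 78.9. The Pmel line shares 103 bases with the line of Dgka on the opposite strand, and reads there cannot be assigned by strand because the library kit does not mark it. The FPKM of Dgka, a diacylglycerol kinase, was 1.62, 1.64, 0.652 and 2.51 in the same order of libraries, so its P4 difference was 1.09 against 4.43 for Pmel.

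Mlana (chromosome 19, 29772431 to 29782796) was listed at an FPKM of 0 in both pHes1_ENC libraries, at 0.147 in P1 pHes1_EPC and at 2.08 in P4 pHes1_EPC. Its highest value rested on about 23 reads, and the interval there ran from 0.668 to 2.42. No fold against EGFP-negative cells is given, since both were listed at 0.

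Mitf (chromosome 6, 97757052 to 97971352), the transcription factor of the pigment program, had an FPKM of 1.07 in EGFP-negative and 0.359 in EGFP-positive cells at P1, and 0.13 and 0.756 at P4. It was the only member whose highest level was in an EGFP-negative library. At P1 it was 2.97 times lower in pHes1_EPC than in pHes1_ENC, and at P4 it was 5.83 times higher, with bounds of 3.0 and 14.8. Between P1 and P4 the level changed by 2.1 times upward in EGFP-positive cells and 8.23 times downward in EGFP-negative cells. The tables do not separate the isoforms of Mitf, which start at different promoters, so the melanocyte and pigment epithelium forms cannot be told apart.

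Rpe65 and Rgr belong to the visual cycle of the pigment epithelium, RPE65 as the isomerase that forms 11-cis-retinol and RGR as an opsin that binds all-trans-retinal and is also made by Müller glia. Rpe65 (chromosome 3, 159262145 to 159288271) was listed at an FPKM of 0 in EGFP-negative and 0.0232 in EGFP-positive cells at P1, and 0.0239 and 0.422 at P4. The highest of these was about 20 reads, and the middle values were about 1 read each. The marker enzyme of the pigment epithelium was therefore measured below an FPKM of 1 in every library.

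Rgr (chromosome 14, 37850676 to 37862150) had an FPKM of 2.1 in EGFP-negative and 0.576 in EGFP-positive cells at P1, and 5.58 and 6.85 at P4. It was high in both fractions at P4, and it was the only member whose P4 intervals overlapped between the fractions (they were apart for 46.9% of all genes), with a ratio of 1.23 and bounds of 0.882 and 1.72. At P1 it was 3.64 times lower in pHes1_EPC than in pHes1_ENC. Tyrp1 showed the same order of the 4 libraries as Rgr.

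Ttr and Best1 stand for secretion and transport. Ttr, the carrier of retinol-binding protein and thyroxine that the pigment epithelium, the ciliary epithelium and the choroid plexus secrete, was listed at an FPKM of 0 in EGFP-negative and 0.112 in EGFP-positive cells at P1, and 0.308 and 23.1 at P4. Its P4 ratio of pHes1_EPC to pHes1_ENC was 75.0, with bounds of 37.4 and 172 that overlap those of Pmel. Its FPKM in P4 pHes1_EPC lay above its own interval, which ran from 18 to 22.1, so that the bounds are not centred on the value.

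Best1 (chromosome 19, 10059662 to 10076123), an anion channel of the basolateral membrane, had an FPKM of 0.116 in EGFP-negative and 0.223 in EGFP-positive cells at P1, and 0.0418 and 0.266 at P4. All 4 values were low, the highest with about 17 reads. In EGFP-positive cells the P1 and P4 intervals overlapped, and the P4 difference between fractions was 0.28.

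The levels in P4 pHes1_EPC fell in the order Pmel, Ttr, Dct, Rgr, Tyrp1, Mlana, Tyr, Mitf, Rpe65 and Best1. In this order the intervals overlapped between the neighbours Rgr and Tyrp1, between Mlana and Tyr, between Mitf and Rpe65 and between Rpe65 and Best1, so counting error does not separate these pairs. In P1 pHes1_ENC the order was different, with Dct, Rgr, Tyrp1 and Mitf above an FPKM of 1 and the other 6 at or below 0.209.

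Between the fractions at P4, 5 of the 10 members were higher by more than 1 in pHes1_EPC (Pmel, Ttr, Dct, Mlana and Tyr), against 9.85% of all genes, and 0 were lower, against 5.42%. This comparison chose the genes, so the count is a description. All 10 differences were above 0, with a median of 0.90 and a range from 0.25 for Rgr to 4.43 for Pmel. The median over all genes was 0, and over the 12941 genes that reached an FPKM of 1 anywhere it was 0.15. With FPKM rescaled to the same total that last median became -0.09, and the 2150 genes higher and 1184 lower became 1535 and 1668, while all 10 members stayed above 0. In bulk RNA, fewer cells of a type and less RNA per cell cannot be told apart.

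The comparison of the fractions at P1 is not the one that the choice of genes names. There 1 member, Pmel, was higher by more than 1 in pHes1_EPC, against 6.1% of all genes, and 0 were lower by more than 1, against 6.79%. The median of the members was 0.08, beside 0 over all genes, and the range ran from -0.98 for Rgr to 1.30 for Pmel. Intervals were apart for 5 members, a share near the 43.9% of all genes. Of these Pmel was higher in pHes1_EPC and Tyrp1, Dct, Mitf and Rgr were lower, by 0.94, 0.88, 0.60 and 0.98 on the log2(FPKM + 1) scale. The members thus had no common direction at P1.

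**Figure D3:**
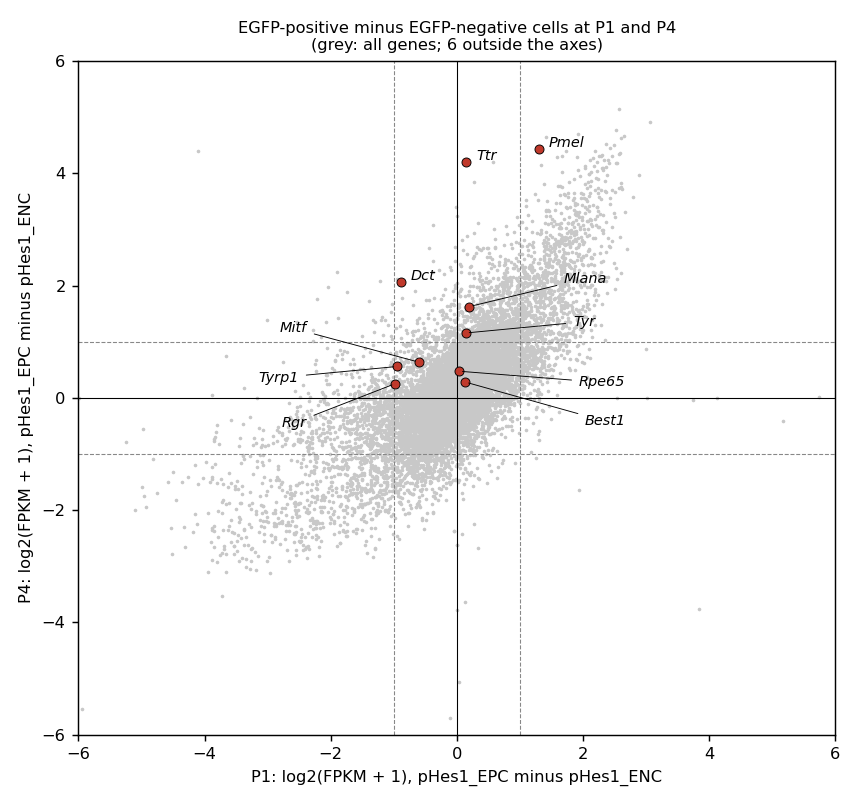
Differences of log2(FPKM + 1) between pHes1_EPC and pHes1_ENC at P1 (horizontal) and P4 (vertical). Each grey point is a gene and the 10 pigment epithelium genes are red, with dashed lines at 1 and -1 and 6 genes outside the axes. All 10 members lie above 0 on the P4 axis, and Tyrp1, Dct, Mitf and Rgr lie to the left of 0 on the P1 axis.

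Between the ages, 7 of the 10 members were higher by more than 1 at P4 than at P1 in pHes1_EPC, against 4.17% of all genes. This comparison shares the P4 pHes1_EPC library with the one above, and it too holds the values that selected the genes. The 7 were Ttr, Pmel, Dct, Tyrp1, Rgr, Mlana and Tyr, with differences of 4.44, 3.65, 3.09, 2.42, 2.32, 1.43 and 1.07. The median of the members was 1.87, beside 0 over all genes and 0.17 over those that reached an FPKM of 1. Rescaled to the same total, the numbers of genes higher and lower moved from 911 and 560 to 464 and 991.

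In pHes1_ENC, where the choice of genes names no difference between ages, 1 member, Rgr, was higher by more than 1 at P4 than at P1, against 2.77% of all genes. The difference was 1.09 for Rgr and 0.92 for Tyrp1, and these were followed by 0.52 for Pmel and 0.39 for Ttr. Mitf had the lowest, at -0.87. The median of the members was 0.10. Tyrp1 and Rgr were thus 2.53 and 2.66 times higher at P4 in EGFP-negative cells also, with intervals apart in both. At lower FPKM, Pmel was 3.52 times higher, with bounds of 1.44 and 10.4, and Ttr went from 0 to 0.308, with intervals apart in both. Mitf was lower, with intervals apart. The share of all genes with intervals apart was not counted for this comparison.

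**Figure D4:**
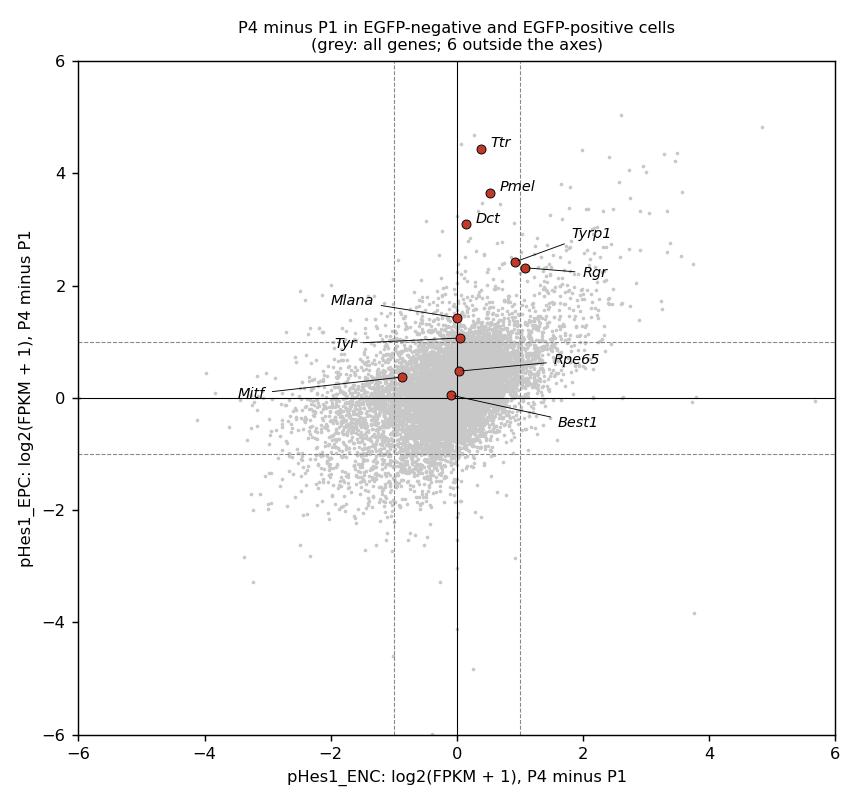
Differences of log2(FPKM + 1) between P4 and P1 in pHes1_ENC (horizontal) and pHes1_EPC (vertical). Each grey point is a gene and the 10 pigment epithelium genes are red, with dashed lines at 1 and -1 and 6 genes outside the axes. Ttr, Pmel and Dct lie between 0.15 and 0.52 horizontally and above 3 vertically, while Rgr and Tyrp1 lie to the right of the other members.

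Other genes of the pigment epithelium were taken from lists. Of 19 other genes of the melanosome, 2 were higher by more than 1 in pHes1_EPC at P4 and 2 were lower. These counts were near the shares of all genes (9.85% and 5.42%). A gene below an FPKM of 1 in both fractions could not be counted at this threshold, whatever its ratio. The median difference of the list was 0.19. The higher were Dtnbp1, a subunit of the complex that sorts cargo to melanosomes, with an FPKM of 7.27 in pHes1_ENC and 17.5 in pHes1_EPC, and Slc24a5, the potassium-dependent exchanger of the melanosome path, with 2.56 and 6.64. The lower were Rab27a, which tethers melanosomes to actin, with 5.02 and 1.47, and Lyst, a regulator of lysosome size, with 4.24 and 1.13. Under each of the 3 other scalings 0 genes of this list were higher by more than 1. With a pseudocount of 0.1, 7 were higher by more than 1, against 3212 of all 21828 genes. The Slc24a5 line overlaps that of Myef2, so reads could be shared between them.

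Of these 19 genes, 11 had their highest value in P4 pHes1_EPC, against 26.3% of all genes. Among the others at P4 Myo7a, Hps4, Mreg and Hps5 had differences of -0.66, -0.66, -0.47 and -0.38. Some of the 11 had little excess over P1 pHes1_EPC, such as Slc7a11 (15.9 against 15.5), Dtnbp1 (17.5 against 16.1) and Atp7a (4.54 against 4.10). The values of 3 others, picked after they were seen, are given next. They were near 0 in the other libraries and are not typical of the 11. Oca2, an anion channel of the melanosome, had an FPKM of 0.00258, 0.0392, 0.0135 and 0.583 in P1 pHes1_ENC, P1 pHes1_EPC, P4 pHes1_ENC and P4 pHes1_EPC. Gpr143, the melanosomal receptor of ocular albinism, was listed at 0 in the first 3 libraries and at 0.319 in P4 pHes1_EPC. Slc45a2, a melanosomal transporter, was listed at 0 in both pHes1_ENC libraries, at 0.0274 in P1 pHes1_EPC and at 0.235 in P4 pHes1_EPC. Each of these 3 stayed below an FPKM of 1 in every library.

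Of 9 other genes of the visual cycle, 3 were higher by more than 1 in pHes1_EPC at P4 and 0 were lower, against 9.85% and 5.42% of all genes, with a median of 0.30. Rlbp1, the 11-cis-retinal carrier of both pigment epithelium and Müller glia, had an FPKM of 13.1 in P4 pHes1_ENC and 384 in P4 pHes1_EPC. Rdh5, the 11-cis-retinol dehydrogenase, had 2.64 and 7.72. At P1 the difference was 2.53 for Rlbp1 and 0.10 for Rdh5. Lrat, the retinol acyltransferase that supplies RPE65, was at 0.0919, 0.215, 0 and 0.112 in the order of libraries above, and thus low in all of them.

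The 4 genes of the photoreceptor side of the cycle, Rdh8, Rdh12, Abca4 and Rbp3, were all lower by more than 1 in pHes1_EPC at both ages, with medians of -2.12 at P1 and -2.37 at P4. In both fractions all 4 were higher by more than 1 at P4 than at P1. Rbp3, the retinoid carrier between photoreceptors and pigment epithelium, had an FPKM of 193 in EGFP-negative and 12.9 in EGFP-positive cells at P1, and 600 and 77.8 at P4.

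Of 30 genes for transport, adhesion and secretion in the pigment epithelium, 29 were matched. At P4 16 of these were higher by more than 1 in pHes1_EPC and 0 lower, against 9.85% and 5.42% of all genes, with a median of 1.17. At P1 9 were higher and 2 lower, against 6.1% and 6.79%, with a median of 0.58. The list holds many genes that glia and progenitors also use. Car14, a membrane carbonic anhydrase found in both pigment epithelium and Müller glia, had an FPKM of 2.65 in P4 pHes1_ENC and 66.3 in P4 pHes1_EPC, and its line overlaps that of Aph1a. Enpp2, which makes lysophosphatidic acid, had 1.58 and 28.6, Trf, the iron carrier transferrin, had 0.516 and 6.65, and Sostdc1, a secreted inhibitor of BMP and Wnt signals, had 0.304 and 6.02. C1qtnf5, a short-chain collagen of the pigment epithelium, had 0.243 and 3.10, and Mertk, the receptor for uptake of outer segments, had 0.117 and 2.02.

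The rest of the 16 were Slc16a1, Timp3, Pros1, Itgav, Itgb5, Slc9a3r1, Ezr, Serpinf1, Efemp1 and Cdh3, with P4 differences from 1.07 for Cdh3 to 2.36 for Slc16a1. Kcnj13, Tspan10, Slc16a8, Aqp1, Cdh1, Slc26a7 and Krt18 had P4 intervals that overlapped between the fractions. Intervals were apart at P4 for 46.9% of all genes. The values of Kcnj13, Tspan10 and Slc16a8 are given as examples. Kcnj13, the apical potassium channel of the pigment epithelium, had an FPKM of 0.504 in P4 pHes1_EPC and 0.480 in P4 pHes1_ENC. The Kcnj13 line overlaps that of Gigyf2. Tspan10, a tetraspanin of the layer, had 0.889 and 0.485. Slc16a8, the basolateral lactate transporter of the layer, had 2.57 and 1.95. The P4 differences between fractions were 0.02, 0.35 and 0.27 for these 3 genes, and the differences between P4 and P1 in pHes1_EPC were 0.41, 0.86 and 1.37, the last being among the 6 of this list above 1.

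Among the transcription factors beside Mitf, 0 of 5 were higher by more than 1 at either age. Otx2, which acts in pigment epithelium and in photoreceptors, was lower in pHes1_EPC at both ages, with an FPKM of 509 in EGFP-negative and 41.8 in EGFP-positive cells at P1, and 835 and 292 at P4. The relatives of Mitf, listed under the older symbols Tcfec, Tcfeb and Tcfe3, had P4 differences of 0.07, 0.45 and -0.26. Of the 6 neural retina factors that oppose the pigment fate, 4 were higher by more than 1 in pHes1_EPC at P4, among them Lhx2, Sox2 and Six3, with differences of 3.11, 3.64 and 1.7.

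**Figure D5:**
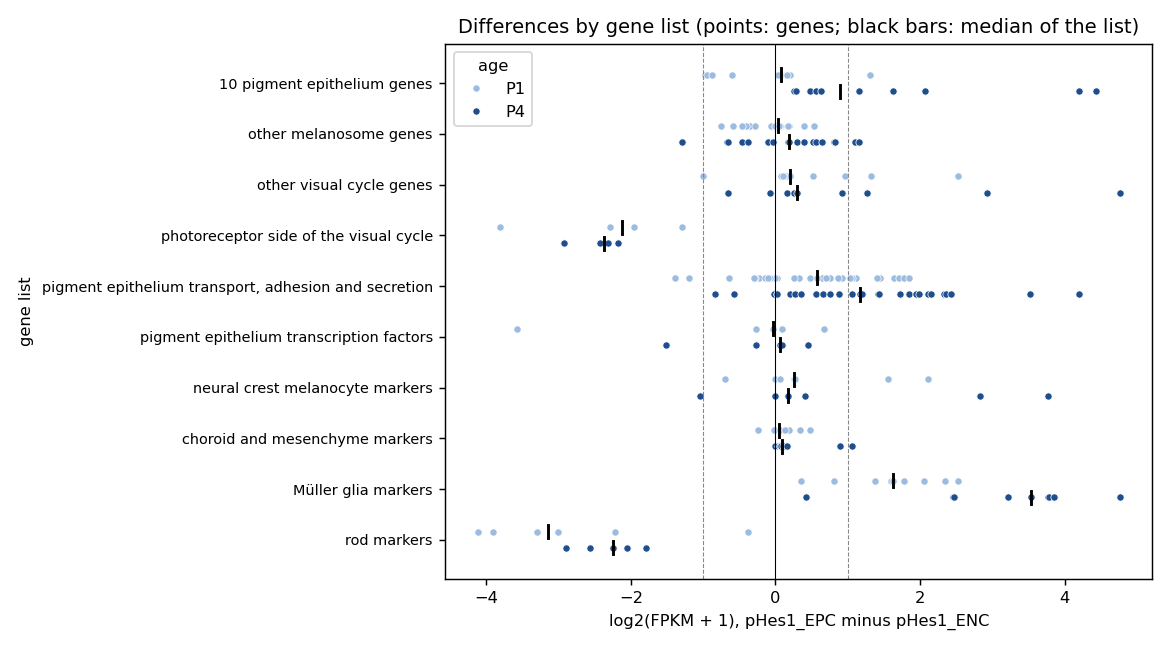
Differences of log2(FPKM + 1) between pHes1_EPC and pHes1_ENC by gene list, with P1 in light and P4 in dark blue. Each point is a gene, black bars are the medians of a list and dashed lines stand at 1 and -1. The 10 pigment epithelium genes have medians of 0.08 at P1 and 0.90 at P4, beside 1.63 and 3.53 for Müller glia markers and -3.15 and -2.24 for rod markers.

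Markers of other cells that express some of the members are given beside them. Of 7 markers of neural crest melanocytes, which also make melanin, Pax3 was at most 0.00287 FPKM in any library, and Foxd3 was listed at 0 in both P4 libraries. Sox10 was at 0.0313 in P4 pHes1_ENC and 0.376 in P4 pHes1_EPC, with intervals apart, and Mc1r was lower by more than 1 in pHes1_EPC at P4, at 0.364 against 1.80. Kit and Ednrb were higher by more than 1 in pHes1_EPC at both ages, with an FPKM of 50.8 and 13.8 in P4 pHes1_EPC, and the sum of the list was 12.4, 50.9, 5.75 and 65.6 in the order of libraries above. The 10 markers of choroid and mesenchyme summed to 0.703, 1.57, 0.166 and 2.64 in that order. Col1a1 and Ogn, at 1.22 and 0.856 in P4 pHes1_EPC, held most of the last sum. In all, 6 of the 10 were highest in P4 pHes1_EPC, against 26.3% of all genes, while Col1a2, Col3a1, Foxc1 and Postn were highest at P1. Of the 10, 1, Col1a1, was higher by more than 1 at P4, against 9.85% of all genes. Of the 7 markers of the ciliary margin, where pigmented and neural epithelium meet, Zic1 and Gja1 were higher by more than 1 at P4, while Msx1 was at most 0.233. The part of each in the members' levels was not tested.

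The 9 Müller glia markers summed to 463, 1403, 305 and 2768 in the order of libraries above, and the 6 rod markers to 424, 28.7, 2978 and 579. Between P1 and P4 the rod sum in pHes1_EPC was thus higher at P4 together with the members, and Apoe, Vim and Rlbp1 among the glial markers were higher by more than 1. Of 6 lens markers, the crystallin gene Crybb1 had an FPKM of 6.55 in P4 pHes1_EPC against 0.163 to 0.455 elsewhere. Bfsp2 was also highest in P4 pHes1_EPC, at 0.901 against 0.172 to 0.366 elsewhere. Mip and Bfsp1 were lowest in that library, and Cryaa and Lim2 were listed at 0 in it. Of the 8 endothelial markers, 1, Kdr, which retinal progenitors also express, was higher by more than 1 at P4, against 9.85% of all genes. Cdh5 and Emcn were listed at 0 in both P4 libraries. Of the 8 microglia markers, 0 were higher by more than 1 in pHes1_EPC at P4, with a median of 0.29. At P1 4 of them, Tyrobp, C1qc, C1qb and Csf1r, were, against 6.1% of all genes, with a median of 1.06. The 5 erythroid markers summed to 137 and 329 in pHes1_ENC at P1 and P4 and to 0.586 and 5.82 in pHes1_EPC. What any of these lists contributed to the members was not tested.

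By the distance between profiles of log2(FPKM + 1), each centred on its own mean over the 4 libraries, the genes most like the median profile of the members were Atox1, Gpr30, Ndufa3, 1110054M08Rik and Cpxm2. The distances were 0.10, 0.14, 0.17, 0.17 and 0.18, over the 12941 genes that reached an FPKM of 1 in any library. Tyr and Mlana lay within 0.26 of this profile, whereas Pmel and Ttr lay at 2.74 and 2.65, because their P4 pHes1_EPC levels stood so far above the rest. Cpxm2, a carboxypeptidase-like protein, had an FPKM of 0.0881 in EGFP-negative and 0.0231 in EGFP-positive cells at P1, and 0.143 and 1.47 at P4. Gpr30, a G-protein-coupled receptor, had 0.189, 0.298, 0.204 and 2.07. The FPKM of Atox1 and Ndufa3 lay outside their own intervals in all 4 libraries. With 4 libraries many genes share such a profile.

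Ranked by log2(FPKM + 1) in P4 pHes1_EPC minus the highest of the other 3 libraries, Ttr was at rank 2, Pmel at 4, Dct at 22, Mlana at 70 and Tyr at 164 of all 21828 genes. Tyrp1 was at 1017, Rpe65 at 1358, Rgr at 2643, Best1 at 4662 and Mitf at 14570. The 10 genes at the top were Srsf5, Ttr, Mt2, Pmel, Atp6v0c-ps2, Bc1, Car14, Slc15a2, Sat1 and Mt1. Srsf5 had no estimate in the other 3 libraries, where its lines failed and list 0, so its excess was not measured. The FPKM in P4 pHes1_EPC lay above its own interval for Ttr, Mt2, Bc1, Sat1 and Mt1, so the size of their excess is uncertain. For Bc1, at 8.44, the interval reached 0. The metallothionein genes Mt2 and Mt1, which bind zinc and copper, had an FPKM of 124 and 198 in P4 pHes1_EPC, against at most 7.89 and 32.7 in the other libraries, and the intervals of the former ran from 75.2 to 88.2 and from 119 to 135. Slc15a2, a peptide transporter, had 18 against at most 1.21.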

How the data were processed

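RNA from pHes1_EPC and pHes1_ENC sorted at P1 and P4 was sequenced in 4 libraries, 1 for each fraction and age. Single-end 36-base reads were placed on NCBI37/mm9 by the authors using TopHat 2.0.8b, in which a read could keep as many as 50 positions, and the deposited gene FPKM and their 95% intervals are Cufflinks 2.1.1 estimates. Total counts were not analysed here. The submitters' processing notes also name bcl2fastq 1.8.4.

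Python 3.11.15, numpy 2.4.6, pandas 2.3.3 and matplotlib 3.10.9 were used. The 23021 lines of each table were matched by identifier and locus, 787 lines of small RNAs were left out, and 235 symbols with several lines were represented by their highest line. Differences used a pseudocount of 1, and ratios of 2 libraries took their bounds from the ends of the intervals. Procedures were tested on simulated data for genes with an FPKM of at least 10, which did not cover the low levels of most members. With 1 library per group no test was made. Depth was inferred only from interval widths.

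The members and the gene lists were chosen with earlier results of these data known. The genes named are the members, genes of the lists (each with a P4 difference above 1 or below -1 in the first 3 lists), the 5 genes nearest to the members' median profile and the 10 with the largest excess in P4 pHes1_EPC. Some genes of these lists are not reported here. Of 147 list symbols 146 were matched, 3 of them through RefSeq synonyms. Gene strands for the promoter windows came from the GENCODE annotation of the same build. Alternatives were a pseudocount of 0.1, a minimum FPKM of 1 in the higher of both libraries, 3 other scalings (same total, median of ratios and quantile normalization), lines of a symbol summed, and intervals that do not overlap.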

Additional observations from a re-analysis of the deposited data

Results flagged for a closer look

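Each result here had opposite directions in the 2 ages or the 2 fractions, with 1 library in each, and the difference was not tested. Between pHes1_EPC and pHes1_ENC, on the log2(FPKM + 1) scale, Tyrp1 differed by -0.94 at P1 and 0.56 at P4. Dct differed by -0.88 at P1 and 2.06 at P4. Mitf differed by -0.60 and 0.64, and Rgr by -0.98 and 0.25, where the P4 intervals overlapped. Slc24a5, the melanosomal exchanger, differed by -0.47 at P1 and 1.10 at P4.

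Between P4 and P1, Mitf differed by -0.87 in pHes1_ENC and 0.37 in pHes1_EPC. Best1 differed by -0.10 in pHes1_ENC and 0.050 in pHes1_EPC, with overlapping intervals in both fractions.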

How the results depend on the processing

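With a pseudocount of 0.1, members higher by more than 1 became 3 at P1 and 8 at P4 between the fractions and 4 at P4 over P1 in pHes1_ENC. Their medians became 0.44 at P1, 2.22 at P4, 3.25 between ages in pHes1_EPC and 0.36 in pHes1_ENC. It also gave 7 other melanosome genes at P4 and 16 genes of transport, adhesion and secretion at P1. The scalings by library total, by median of ratios and by quantiles each left 0 other melanosome genes higher by more than 1 at P4, and the quantile scaling gave 2 members at P4 over P1 in pHes1_ENC. No count of members between the fractions, or between ages in pHes1_EPC, left 1.5 times its main value under the other alternatives. Of 200 single member differences under alternatives 166 stayed within their interval bounds, 34 moved outside and 0 above 1 in size changed sign. Those that moved came from the pseudocount of 0.1, except Pmel between ages in pHes1_EPC with the same total and Pmel at P4 with the quantile scaling. With that pseudocount every member difference between the fractions at P1 moved, so most single differences depend on the pseudocount. Differences with lines summed could not move, because each member has 1 line. The minimum FPKM of 1 could not change a count, because a difference above 1 already requires it. Best1 between ages in pHes1_EPC became -0.02 with the same total. Over all 21828 genes, the pseudocount of 0.1 moved the number higher by more than 1 from 1331 to 2057 and lower from 1483 to 2470 at P1. At P4 it moved the number higher from 2150 to 3212 and the number lower from 1184 to 1963. The number higher at P4 over P1 moved from 911 to 1713 in pHes1_EPC and from 604 to 1009 in pHes1_ENC. In pHes1_EPC the quantile scaling gave 593 and the scaling by total 464. No paired analysis was possible because each group has 1 library. Depth limits Rpe65, Best1 and Mlana, with under 30 reads each in P4 pHes1_EPC.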
